A study of Mus musculus with 16 samples.

Results

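The nuclear-encoded genes of the mitochondrial respiratory chain and ATP synthase were followed in RNA from sorted lung endothelial cells (ECs) of young and aged mice, with and without bleomycin injury. They were chosen by name and biotype: protein-coding genes whose symbols start with Nduf, Uqcr, Sdha, Sdhb, Sdhc, Sdhd, Cox4, Cox5, Cox6, Cox7, Cox8 or Atp5. The rule gave 94 of the 43346 genes in the deposited table, which lists 22032 protein-coding genes, and a further 3 names that fit the rule belong to processed pseudogenes and were left out. By name the 94 split into 38 complex I genes, 7 complex I assembly factors, 4 complex II subunits with 2 assembly factors, 8 complex III genes, 18 complex IV genes and 17 ATP synthase genes. The rule itself uses no measured value.

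The respiratory chain passes electrons from NADH and succinate through complexes I to IV to oxygen and pumps protons across the inner mitochondrial membrane, and ATP synthase uses that proton gradient to make ATP. Most subunits are encoded in the nucleus and are made in nearly every cell, while a few complex IV subunits also exist as alternative isoforms in heart and skeletal muscle, testis or lung. ECs are known for drawing much of their ATP from glycolysis, and the pericytes and smooth muscle cells around vessels (mural cells) are known in lung for the isoforms Cox4i2 and Ndufa4l2.

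RNA-seq libraries were made from 16 samples in 4 groups. Young Sham (n = 5) and Young Bleo (n = 4) mice were 2 months old and Aged Sham (n = 3) and Aged Bleo (n = 4) mice 18 months old. All were of the FVB strain and, by the study's methods, carried a Col1a1-GFP reporter of collagen-producing cells and were of both sexes. Bleo mice had received bleomycin in the airways at about 1 U per kg and Sham mice PBS, and lungs were taken 30 days later. ECs were sorted as CD31+ cells that lacked CD45, EpCAM and GFP. The labels name a SMART-Seq cDNA kit with a Nextera library and the methods a TruSeq poly(A) kit, which leaves the kit open. The labels do not give the number of animals per library. By its text, the study took these cells from the lungs it also profiled by ATAC-seq, where a sample was 1 mouse.

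Total gene counts were 20907113 to 71035301 per library, and members took 1.01% to 1.64% of them. All 7 endothelial markers were present in every group. Their summed normalized count (counts divided by DESeq2 size factors) was 589229 to 644194 in Young Sham and 408236 to 510228 in Young Bleo. It was 547821 to 570686 in Aged Sham and 389957 to 528057 in Aged Bleo, so every Bleo library lay below every Sham library. The 9 leukocyte and macrophage markers summed to 3072 to 5115 in Young Sham and 17597 to 53598 in Young Bleo. They reached 7463 to 23098 in Aged Sham and 25538 to 172296 in Aged Bleo. The 6 mural markers summed to 8665 to 19164, 3468 to 8859, 5612 to 9420 and 2337 to 3676 in the same order. No marker on these lists, or on the lists for epithelium, fibroblasts, mesothelium, red cells, platelets and heart muscle, was at or under 3 counts in all 16 libraries, but Wt1, a mesothelial marker, was at 0 in all 5 Young Sham libraries. In such bulk samples, fewer cells of a type and less RNA per cell cannot be told apart. The 37 mitochondrially encoded genes, 13 of them subunits of the same complexes, are listed at 0 in every library and were not used.

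Members that carried the largest differences belong to paralogue pairs in which one gene is used in most cells and its partner in few. Cox4i1 and Cox4i2 encode subunit 4 of complex IV. Ndufa4 and Ndufa4l2 encode a small subunit named for complex I that is now placed in complex IV, and its hypoxia-induced relative. Cox6b1 and Cox6b2 encode subunit 6b, the latter best known in testis. Their coding sequences are shown because how far a pair differs sets how well reads tell its genes apart. The first 300 bases are given for Cox4i1 and Cox4i2 and the whole coding sequence for the others, from GENCODE vM21 transcripts on GRCm38 (mm10), 5′ to 3′, with capitals at bases that differ from the aligned partner or have none.
Cox4i1: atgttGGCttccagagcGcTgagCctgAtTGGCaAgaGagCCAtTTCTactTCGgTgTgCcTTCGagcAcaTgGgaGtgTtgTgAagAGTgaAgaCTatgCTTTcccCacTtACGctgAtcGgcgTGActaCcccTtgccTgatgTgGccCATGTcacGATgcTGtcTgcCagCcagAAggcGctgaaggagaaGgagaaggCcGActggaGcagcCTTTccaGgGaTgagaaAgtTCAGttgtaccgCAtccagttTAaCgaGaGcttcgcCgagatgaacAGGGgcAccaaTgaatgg
Cox4i2: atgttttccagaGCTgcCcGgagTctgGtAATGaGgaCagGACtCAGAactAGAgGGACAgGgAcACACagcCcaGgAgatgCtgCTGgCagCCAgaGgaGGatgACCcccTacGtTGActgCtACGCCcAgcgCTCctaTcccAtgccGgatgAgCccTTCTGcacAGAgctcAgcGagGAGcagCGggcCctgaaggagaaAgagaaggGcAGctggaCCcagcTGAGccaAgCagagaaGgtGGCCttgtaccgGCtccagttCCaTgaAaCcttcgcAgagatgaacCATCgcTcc
Ndufa4: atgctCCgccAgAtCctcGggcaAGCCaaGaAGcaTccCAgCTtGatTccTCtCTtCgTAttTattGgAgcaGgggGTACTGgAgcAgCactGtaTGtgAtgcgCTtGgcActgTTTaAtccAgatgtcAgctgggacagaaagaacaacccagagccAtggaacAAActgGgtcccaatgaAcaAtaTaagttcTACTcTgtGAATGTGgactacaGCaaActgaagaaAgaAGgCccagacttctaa
Ndufa4l2: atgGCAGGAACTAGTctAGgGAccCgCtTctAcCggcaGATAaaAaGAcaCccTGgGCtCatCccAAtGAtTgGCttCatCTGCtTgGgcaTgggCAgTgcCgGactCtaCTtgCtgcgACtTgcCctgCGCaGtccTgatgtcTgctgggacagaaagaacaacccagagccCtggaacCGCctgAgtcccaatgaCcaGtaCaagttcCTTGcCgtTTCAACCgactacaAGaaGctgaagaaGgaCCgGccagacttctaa
Cox6b1: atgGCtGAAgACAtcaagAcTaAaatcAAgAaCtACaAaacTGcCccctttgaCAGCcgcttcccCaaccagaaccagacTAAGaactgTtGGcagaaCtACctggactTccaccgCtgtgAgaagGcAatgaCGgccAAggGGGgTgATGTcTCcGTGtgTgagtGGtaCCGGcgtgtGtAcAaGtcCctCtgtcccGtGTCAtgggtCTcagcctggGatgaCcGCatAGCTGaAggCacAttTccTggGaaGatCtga
Cox6b2: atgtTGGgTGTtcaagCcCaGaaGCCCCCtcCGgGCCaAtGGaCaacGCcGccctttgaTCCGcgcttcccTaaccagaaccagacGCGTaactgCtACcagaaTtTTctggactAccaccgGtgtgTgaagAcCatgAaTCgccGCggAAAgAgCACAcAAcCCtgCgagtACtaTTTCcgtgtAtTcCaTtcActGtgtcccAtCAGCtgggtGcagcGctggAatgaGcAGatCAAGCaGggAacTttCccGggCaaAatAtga
Over aligned bases the Cox4i1 and Cox4i2 coding sequences were 69.2% identical (339 of 490 bases), Ndufa4 and Ndufa4l2 68.6% (168 of 245) and Cox6b1 and Cox6b2 64.6% (166 of 257). The longest identical stretch was 14, 28 and 14 bases. In the deposited table Cox4i2 lies at chr2:152754173-152765037 and Cox4i1 at chr8:120668222-120674207. Ndufa4l2 lies at chr10:127514939-127517152 and Ndufa4 at chr6:11900373-11907446. Cox6b2 lies at chr7:4751792-4753094 and Cox6b1 at chr7:30616974-30626151. The span of Ndufa4l2 overlaps that of Shmt2, a serine metabolism gene with counts here, and the span of Cox4i1 overlaps Emc8, and since the strand setting of the counting is not stated, reads in the shared parts could be split. Cox4i2 and Cox6b2 overlap no other gene of the table.

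Nearly all members were expressed in these cells, and by FPKM (fragments per kilobase of gene, scaled to sequencing depth, which allows levels of genes to be compared per length) they stood far above most genes. Of the 94 members, 71 had a mean of at least 10 FPKM over the 16 libraries, against 12.5% of all protein-coding genes, and the median member was at 26.0 FPKM. The highest were small complex IV subunits. Cox6a1, a regulatory subunit, averaged 237 FPKM (SD 54.3, n = 16 libraries), Cox8a, a single-span membrane subunit, 221 (SD 67.7) and Cox6b1 201 (SD 46.3). Ndufa4 followed at 149 and Uqcr11, a small complex III subunit, at 115. Atp5b, the catalytic beta subunit, led ATP synthase at 101 (SD 10.9), and Sdhd, a membrane anchor, led complex II at 61.4. Such rankings rest on the length taken for each gene, which need not be that of the mRNA in these cells.

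Medians by role were 29.7 FPKM for complex I, 39.8 for complex II, 33.7 for complex III, 23.5 for complex IV and 32.3 for ATP synthase. The assembly factors, which build the complexes without staying in them, were lower, with medians of 4.66 FPKM for complex I and 7.01 for complex II. Complex IV had the widest range. Its muscle isoforms Cox6a2, Cox7a1 and Cox8b averaged 0.332, 1.01 and 0.472 FPKM, its testis isoform Cox8c 0.00407 and Cox7b2 was listed at 0 in every library. Other isoforms far below their partners were Cox4i2 at 5.56 FPKM against 98.9 for Cox4i1 and Ndufa4l2 at 3.00 against 149 for Ndufa4.

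**Figure D1:**
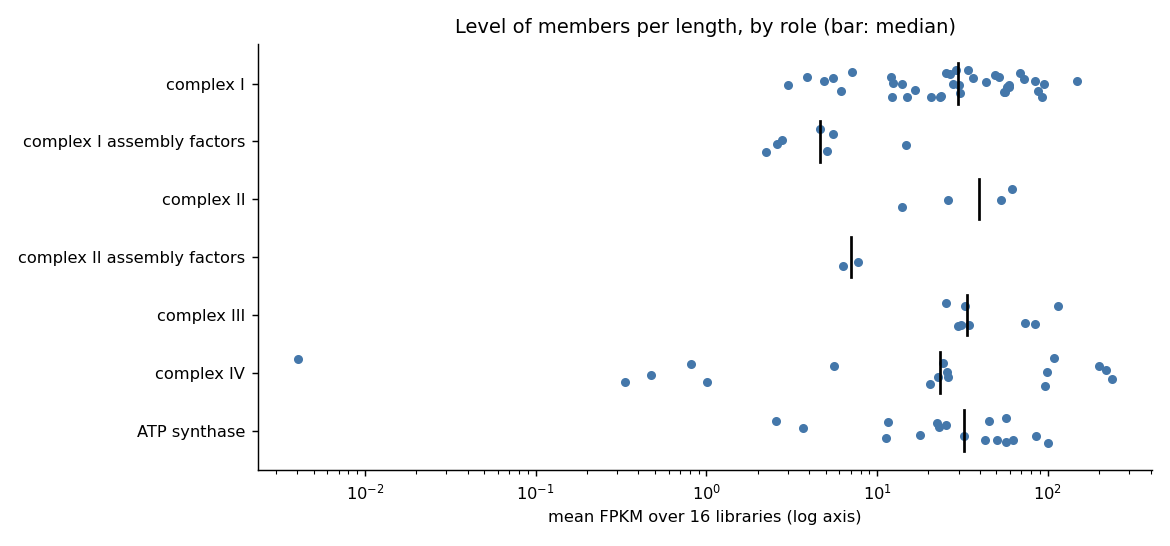
Mean FPKM over 16 libraries (x axis, log scale) of each member, by role on the y axis, with a bar at the median of each role. Most subunits lie above 10 FPKM, the assembly factors other than Ndufaf3 lie below it, and 5 complex IV isoforms lie under 1 FPKM (Cox7b2, at 0, enters the median and cannot be drawn on a log axis).

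Most members differed little between groups. Tests were DESeq2 Wald tests over all genes with Benjamini-Hochberg adjustment, and a member was called where the adjusted p did not exceed 0.05 and the log2 fold change was 0.5 or more in either direction. DESeq2 tested 92 of the 94 members. Medians are over the 89 members whose normalized counts averaged 50 or more, which leaves out Cox6a2, Cox7a1, Cox8b, Cox8c and Cox7b2. Young Sham serves as control in 3 of the comparisons below, which therefore share its libraries.

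In Young Bleo against Young Sham, 1 member was higher, Atp5j, and 2 were lower, Cox4i2 and Ndufa4l2, which is 1.09% and 2.17% of those tested, beside 7.57% and 6.35% of all genes. The median member differed by 0.12 (log2), beside -0.01 over the 13760 genes whose normalized counts averaged 50 or more, which were not matched to the members in level. In Aged Bleo against Young Sham no member was higher by DESeq2 or edgeR (3 at an unadjusted p under 0.05) and 2 were lower, again Cox4i2 and Ndufa4l2, beside 6.58% and 3.14% of all genes, with a median of 0.09. In Aged Sham against Young Sham, Cox6b2 was higher and Ndufa4l2 lower, beside 2.24% and 1.12% of all genes, with a median of 0.26 beside 0.01. In Aged Bleo against Aged Sham no member was higher by DESeq2 or edgeR, nor at an unadjusted p under 0.05 (0 members), and 3 were lower, Cox6b2, Atp5s and Ndufaf7, which is 3.26% beside 2.45% of all genes, where 3.4% were higher. The median was -0.21 beside -0.02.

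Between the injured groups, Aged Bleo against Young Bleo, DESeq2 and edgeR called 0 members, with 1 higher and 2 lower at an unadjusted p under 0.05, beside 0.585% and 0.406% of all genes called. The test of whether the bleomycin response differed with age also gave 0 members by both tools, with 1 higher and 2 lower at an unadjusted p under 0.05, beside 0.137% and 0.24% of all genes. The 95% interval of the log2 fold change lay within 1 of 0 for 85 of the 89 members in Young Bleo against Young Sham, 83 in Aged Bleo against Young Sham, 73 in Aged Sham against Young Sham, 83 in Aged Bleo against Aged Sham and 84 in Aged Bleo against Young Bleo. It did so for 42 in the difference of responses, and for the rest a difference of that size was not excluded.

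**Figure D2:**
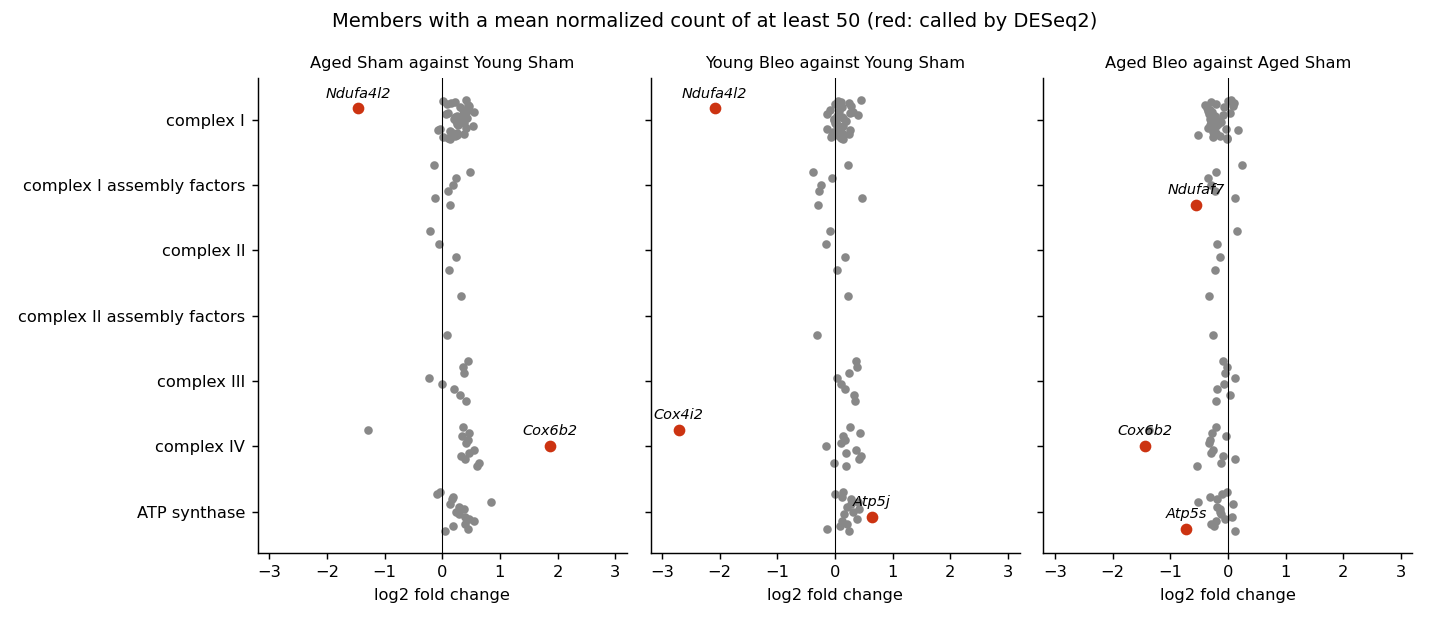
Log2 fold change (x axis) of the 89 members whose normalized counts averaged 50 or more, by role on the y axis, in 3 comparisons, with called members in red. The grey points crowd near 0 in every role while Cox4i2, Ndufa4l2 and Cox6b2 stand apart.

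Complex I, the NADH dehydrogenase, had 38 members by name, Ndufa4 and Ndufa4l2 among them. The only one called in the fit of all libraries was Ndufa4l2, whose relative Ndufa4 is now placed in complex IV. The median complex I member differed by 0.07 in each Bleo group against Young Sham, by 0.26 in Aged Sham against Young Sham and by -0.23 in Aged Bleo against Aged Sham. Ndufs1 and Ndufv1, which carry electrons from NADH over iron-sulphur clusters, differed by -0.14 and -0.06 in Young Bleo against Young Sham and by -0.04 and 0.02 in Aged Sham against Young Sham, with none called. Among the 7 assembly factors, Ndufaf7, a mitochondrial methyltransferase, was the only one called in the fit of all libraries. Ndufaf7 was also called lower in Aged Bleo against Young Sham with length offsets (-0.60) and without Aged Bleo replicate 3 (-0.53). Ndufaf2 was called lower in Young Bleo with length offsets (-0.59) and Ndufaf6 higher without Young Bleo replicate 20 (0.63).

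In complex II, which oxidises succinate, none of the 4 subunits was called in any comparison, nor was Sdhaf1 or Sdhaf2. Sdha, the flavoprotein, differed by -0.09 and Sdhb, the iron-sulphur subunit, by -0.16 in Young Bleo against Young Sham. Sdhc and Sdhd, the membrane anchors, differed by 0.17 and 0.03. Complex III, which hands electrons to cytochrome c, also had no call among its 8 members. Its estimates were above 0 for all 8 in Young Bleo against Young Sham, with a median of 0.29, and for 6 of 8 in Aged Bleo against Young Sham, with a median of 0.27. The core protein Uqcrc1 differed by 0.03 and -0.11 in these comparisons, the Rieske protein Uqcrfs1 by 0.16 and 0.02 and the small subunit Uqcr11 by 0.38 and 0.33.

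ATP synthase had 17 members. Atp5a1 and Atp5b, the alpha and beta subunits of the catalytic head, were the steadiest pair, with the highest library at 1.30 and 1.29 times the lowest over all 16. Atp5b read 46238, 46991, 42826, 49350 and 43284 normalized counts in Young Sham and 39091, 38258, 43708 and 38966 in Aged Bleo. The groups overlapped and the difference of -0.19 was not called (adjusted p = 0.089). The median ATP synthase member differed by 0.21 in Young Bleo against Young Sham, by 0.12 in Aged Bleo against Young Sham and by 0.29 in Aged Sham against Young Sham.

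Atp5j (coupling factor 6, in the stalk of ATP synthase) was the only member called higher after bleomycin. It read 10563, 8541, 9688, 13077 and 11434 normalized counts in Young Sham and 17787, 17465, 21098 and 10234 in Young Bleo. Young Bleo replicate 20 lay inside the Young Sham range while the other 3 lay above it. The log2 fold change was 0.64 (SE 0.23, adjusted p = 0.034), and edgeR did not call it (adjusted p = 0.062). Its span on chromosome 16, 84827866 to 84835625, overlaps that of Gabpa. The call was lost with length offsets and by edgeR. It was also lost when any of 7 single libraries (3 of Young Bleo, 4 of Young Sham) was left out. In the Young Bleo libraries, in the same order, the macrophage marker Cd68 read 3203, 2801, 1569 and 586 normalized counts. Its part in the result was not tested.

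In complex IV, cytochrome c oxidase, the subunits used in most cells were not called in the fit of all libraries. Cox4i1 differed by 0.26 in Young Bleo against Young Sham (95% interval -0.18 to 0.71), Cox5a, which contacts subunit 4, by 0.44 and Cox5b by 0.13. Cox6a1 and Cox8a differed by 0.18 each. Cox7a2l, which joins complexes III and IV into supercomplexes, differed by 0.45 (adjusted p = 0.11) and was called with library totals (0.53) and without Young Bleo replicate 20 (0.59). In Aged Bleo against Young Sham the same genes lay between 0.07 and 0.31. Among the isoforms of this complex, only Cox4i2 and Cox6b2 were called in the fit of all libraries.

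Cox4i2, the alternative subunit 4 known from lung and from low oxygen, was lower in both Bleo groups than in Young Sham. It read 1201, 1243, 619, 926 and 821 normalized counts in Young Sham and 168, 95.7, 204 and 121 in Young Bleo. Aged Sham libraries read 689, 144 and 354 and Aged Bleo 80.0, 43.5, 194 and 290. Every Bleo library of either age lay below every Young Sham library, Aged Sham replicate 13 fell inside the Young Sham range, and the aged groups overlapped. Against Young Sham the log2 fold change was -2.71 in Young Bleo (SE 0.48, adjusted p = 1.87e-06) and -2.66 in Aged Bleo (SE 0.48, adjusted p = 3.39e-06), 6.55-fold and 6.33-fold lower. edgeR called both (adjusted p = 0.0059 and 0.0081), and both held when each library was left out in turn. Aged Sham was lower by an estimate of -1.29 (SE 0.52) that was not called (adjusted p = 0.18), nor was Aged Bleo against Aged Sham at -1.38 (SE 0.55, adjusted p = 0.12). The latter was called at -1.90 when Aged Bleo replicate 5 was left out and at -1.78 when Aged Sham replicate 14 was (DESeq2 adjusted p = 0.012 and 0.030). Without Aged Sham replicate 13 the former became -1.95 and was called (adjusted p = 0.022), and it was also called with offsets for gene length (-1.59) and in a fit of these 2 groups alone (-1.29).

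Ndufa4l2, the hypoxia-induced relative of Ndufa4 known to restrain complex I activity, followed a like course. It read 690, 601, 422, 701 and 488 normalized counts in Young Sham, and 193, 109, 145 and 99.7 in Young Bleo. Aged Sham libraries had 416, 103 and 122 and Aged Bleo libraries 232, 161, 147 and 113. No library of the other 3 groups reached the lowest Young Sham library, and Aged Sham replicate 13 came closest. Against Young Sham the log2 fold change was -2.09 in Young Bleo (SE 0.38, adjusted p = 2.5e-06), -1.83 in Aged Bleo (SE 0.37, adjusted p = 5.96e-05) and -1.46 in Aged Sham (SE 0.41, adjusted p = 0.016). edgeR called the Bleo comparisons (adjusted p = 0.0046 and 0.011) but not Aged Sham (adjusted p = 0.12). The Aged Sham call was also lost without Aged Sham replicate 14, Aged Sham replicate 15 or Young Sham replicate 21 (estimates with 1 library left out -2.37 to -1.13). Aged Bleo against Aged Sham differed by -0.37 (SE 0.43, adjusted p = 0.72).

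The difference of responses, aged minus young, was 1.33 for Cox4i2 (SE 0.73, 95% interval -0.10 to 2.77, adjusted p = 0.69) and 1.71 for Ndufa4l2 (SE 0.57, 95% interval 0.60 to 2.83, adjusted p = 0.22). A positive value means that the aged response was the higher of the pair. Neither passed the threshold in the DESeq2 fit of all libraries, but without Aged Sham replicate 13 Ndufa4l2 did, at 2.62 (adjusted p = 1.02e-05), as it did with offsets for gene length, at 1.98 (adjusted p = 0.031). The injured groups themselves differed in Ndufa4l2 by 0.25 (SE 0.40, adjusted p = 0.92).

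**Figure D3:**
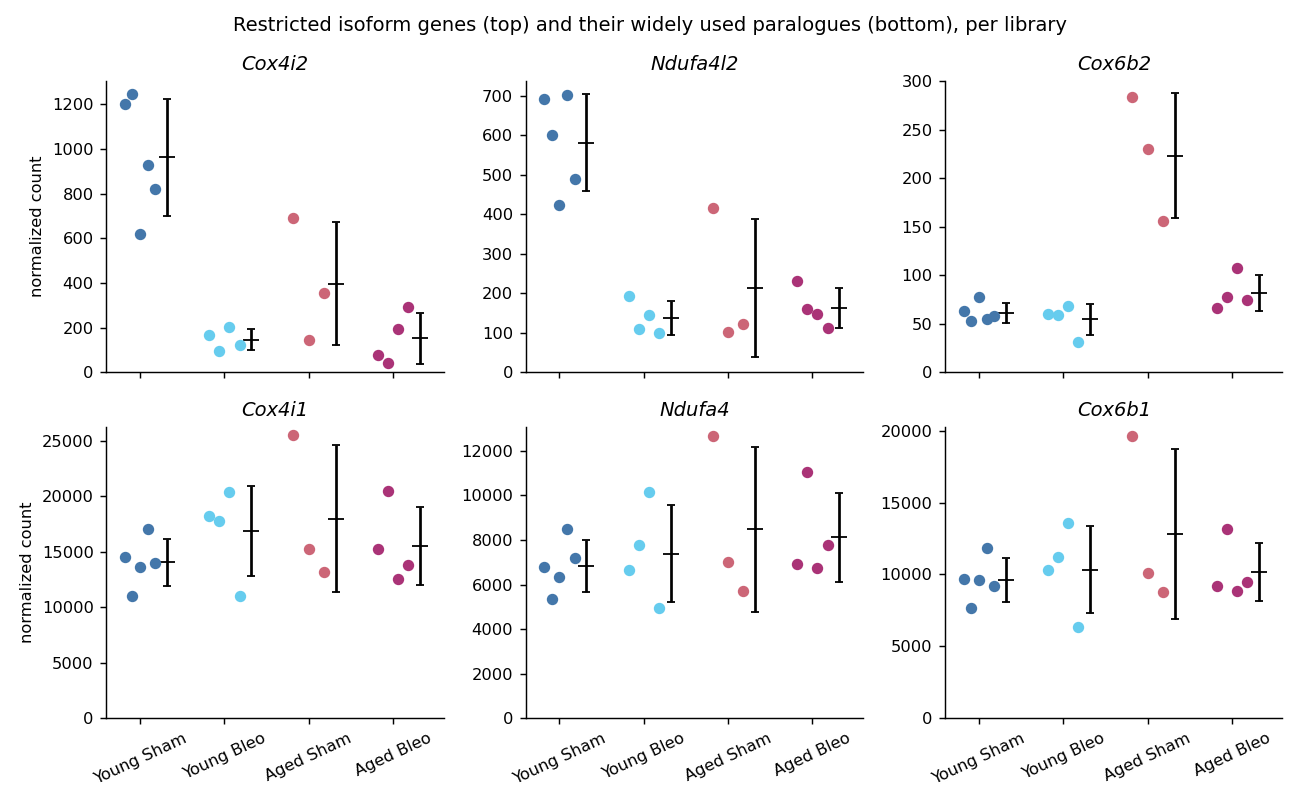
Normalized counts (y axis, from 0) of Cox4i2, Ndufa4l2 and Cox6b2 above and of their partners Cox4i1, Ndufa4 and Cox6b1 below, 1 point per library in 4 groups, with black bars at the mean ± SD. Cox4i2 and Ndufa4l2 drop from Young Sham to Young Bleo and Aged Bleo, Cox6b2 is high in Aged Sham, and the partners overlap in every group.

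As a share of the FPKM of its pair, Cox4i2 made up 12.05% ± 4.0 in the 5 Young Sham libraries (mean ± SD) and 1.71% ± 0.46 in the 4 Young Bleo libraries. In the 3 Aged Sham libraries it was 3.96% ± 1.84 and in the 4 Aged Bleo libraries 2.09% ± 1.66. The share in Young Sham ran from 8.19% to 18.1% and in the other groups it did not pass 5.04%. Aged Sham replicate 13, whose Cox4i2 counts overlapped Young Sham, did not overlap on this scale, and its Cox4i1 was the highest of all libraries at 25557 normalized counts. Ndufa4l2 made up 4.24% ± 0.96 in Young Sham against 0.98% ± 0.35 in Young Bleo, with 1.16% ± 0.46 in Aged Sham and 1.07% ± 0.45 for Aged Bleo, again without overlap between Young Sham (3.31% or more) and the rest (1.69% or less). Depth is not given with FPKM, and these shares carry no test. The shares also depend on the length taken for each gene and would differ by raw counts. In Young Sham replicate 21, Cox4i2 and Cox4i1 had 1272 and 15437 raw counts, against 15.1 and 92.9 FPKM.

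Some markers of mural cells were lower in the same comparisons as both genes, and their part in the result was not tested. Against Young Sham, 2 of the 6 mural markers were called lower in Young Bleo and 0 higher, 6 of 6 lower in Aged Bleo and 2 of 6 lower in Aged Sham, with median log2 fold changes of -1.21, -2.15 and -1.08. Pdgfrb, the platelet-derived growth factor receptor of pericytes, read 1260 to 4027 normalized counts in Young Sham and 217 to 1031 in Young Bleo, with 181 to 599 in Aged Sham and 25.1 to 467 for Aged Bleo. Rgs5, a signalling regulator of pericytes, differed by -0.01 in Young Bleo (adjusted p = 0.99) and by -1.499 in Aged Bleo (adjusted p = 0.0012). Higd1b, a relative of the complex IV factor Higd1a that is abundant in lung pericytes, was looked up after the values of Cox4i2 were seen. It read 390 to 919 in Young Sham and 73.8 to 152 in Young Bleo, with 103 to 380 in Aged Sham and 54.1 to 160 for Aged Bleo. Against Young Sham it was lower in all 3, by -2.49 (Young Bleo), -2.73 (Aged Bleo) and -1.499 (Aged Sham) (adjusted p = 1.17e-07, 4.5e-09 and 0.024). Cspg4, a pericyte proteoglycan, read 185 to 554 in Young Sham and 71.0 to 164 in Young Bleo. Cspg4 and Pdgfrb, like Cox4i2 and Ndufa4l2, did not overlap between these groups, while the mural markers Rgs5, Acta2, Tagln and Myh11 did. Acta2 read 4343 to 9754 in Young Sham and 1752 to 5478 in Young Bleo. Summed fibroblast markers were 6814 to 16151 in Young Sham, 8586 to 13845 in Young Bleo and 3432 to 6932 in Aged Bleo. Summed heart muscle markers were 555 to 2047, 515 to 1355 and 214 to 1054. The part of these lists was not tested.

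**Figure D4:**
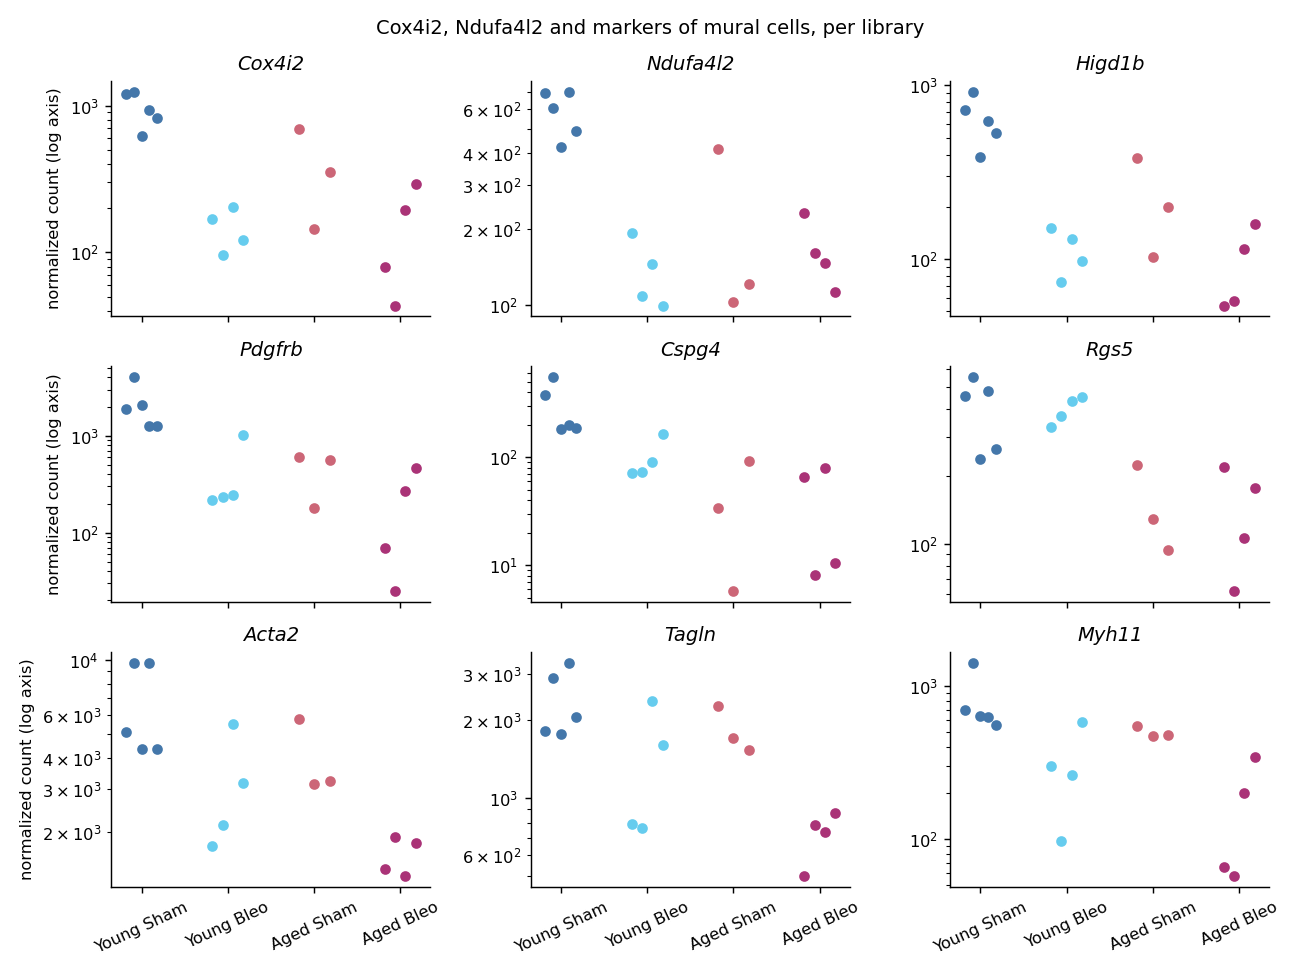
Normalized counts (y axes, log scale) of Cox4i2 and Ndufa4l2 beside Higd1b and the 6 mural markers, 1 point per library in 4 groups. Higd1b, like Cox4i2, lies below Young Sham in every Bleo library, while Rgs5 in Young Bleo stays within the range of Young Sham.

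Cox6b2, a subunit 6b isoform at the outer face of complex IV, was higher in Aged Sham than in Young Sham and was not called against Young Sham in the Bleo groups. It read 63.3, 52.7, 77.9, 54.98 and 57.7 normalized counts in Young Sham, and 60.6, 59.3, 68.3 and 31.7 in Young Bleo. The values were 284, 231 and 156 in Aged Sham and 66.6, 78.1, 108 and 74.6 for Aged Bleo. All 3 Aged Sham libraries lay above all 13 others. Aged Sham was 3.66-fold higher than Young Sham, or 1.87 on the log2 scale (SE 0.31, adjusted p = 5.97e-07), and edgeR called it (adjusted p = 0.013). It held in all 14 alternatives, with estimates from 1.64 to 2.08. Aged Bleo was lower than Aged Sham by -1.44 (SE 0.31, adjusted p = 0.00061), a call that edgeR missed (adjusted p = 0.054) and the other 12 alternatives kept.

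Young Bleo and Aged Bleo differed from Young Sham by -0.15 (SE 0.29) and 0.43 (SE 0.29) for Cox6b2, neither called. The difference of responses was -1.29 (SE 0.43, 95% interval -2.13 to -0.44, adjusted p = 0.22 by DESeq2) and was called without Young Bleo replicate 20 (-1.49, adjusted p = 0.028). The level was low in all groups. At 1.80 FPKM ± 0.42 in Aged Sham (SD, n = 3) against 0.548 ± 0.10 in Young Sham (SD, n = 5), Cox6b2 made up 0.83% and 0.30% of the FPKM of its pair with Cox6b1. Platelet markers moved in the same direction in Aged Sham: 2 of 3 were called higher against Young Sham and 2 of 3 lower in Aged Bleo against Aged Sham, and their sum was 60733 to 328286 in Aged Sham against 25185 to 45021 in Young Sham, 9370 to 22587 in Young Bleo and 5536 to 43627 in Aged Bleo. The sum of the red cell markers was 19903 to 45390 in Aged Sham against 2446 to 12949 in Young Sham, 11388 to 50711 in Young Bleo and 10118 to 35948 in Aged Bleo. Of the 6 fibroblast markers, Pdgfra was called higher in Aged Sham (2.42, adjusted p = 0.020) and read 1295, 582 and 1001 there against 478 or less in every other library, while the list had a median of -0.26 with 3 of 6 above 0. The mesothelial markers summed to 727 to 3087 in Aged Sham against 0.98 to 270 in Young Sham. They reached 1141 to 3426 in Young Bleo and 153 to 1247 in Aged Bleo. The part of any of these marker lists in the result was not tested.

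Of the remaining calls, Atp5s (coupling factor B, a regulator of ATP synthase) read 655, 417 and 530 normalized counts in Aged Sham and 247, 322, 413 and 305 in Aged Bleo, a difference of -0.73 (SE 0.23, adjusted p = 0.038). Ndufaf7 read 1465, 1450 and 1459 in Aged Sham and 1059, 785, 1214 and 910 in Aged Bleo, a difference of -0.56 (SE 0.17, adjusted p = 0.031). In both genes the lowest Aged Sham library was above the highest Aged Bleo library. edgeR called neither (adjusted p = 0.13 and 0.12), and the calls were lost in 8 and 9 of 13 alternatives. The muscle isoforms were near the limit of detection and not called. Cox8b, which read 2.05 to 14.0 in Young Sham, was at 73.9, 17.3 and 20.1 in Aged Sham, and its log2 fold change of 2.21 missed the threshold (adjusted p = 0.075) and passed it without Young Sham replicate 24 (2.52, adjusted p = 0.047).

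The mean level of the members spread more among the libraries of a group than between group means. The mean over the 89 members of log2(normalized count + 1) averaged 11.84 ± 0.18 (SD) over the Young Sham libraries and 11.90 ± 0.31 over Young Bleo. It was 12.03 ± 0.43 over Aged Sham and 11.88 ± 0.19 over Aged Bleo. Aged Sham replicate 13 was highest of all libraries at 12.53, and the other Aged Sham libraries were at 11.84 and 11.74, within the Young Sham range of 11.61 to 12.09. Young Bleo replicate 20 was lowest at 11.47. Replicate 13 was also highest for cytosolic ribosomal proteins (12.06 against 11.18 and 11.01 in the other Aged Sham libraries) and lowest for the tricarboxylic acid (TCA) cycle enzymes (11.76 against 12.05 and 12.19). It held 23734837 counts, the fewest after Young Sham replicate 23 with 20907113, whose member mean was 11.77.

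In replicate 13 the members under 1000 bases stood at 12.63, beside 11.62 and 11.47 in the other Aged Sham libraries, and those of 2000 bases or more at 12.69 beside 12.33 and 12.33. Over the 16 libraries, the highest library stood at a median of 2.79 times the lowest for the 27 members under 1000 bases, 2.30 times for the 32 members of 1000 bases to under 2000 and 1.91 times for the 30 longer ones. Across these 89 genes, which share their libraries and are not independent, the ratio fell with gene length (Spearman's rho -0.55). Gene length in all these classes is the length deposited for each gene, which need not be that of the mRNA in these cells. Cox7c and Atp5k, small subunits of complex IV and ATP synthase, varied most outside the isoforms, at 4.77 and 4.24 times.

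**Figure D5:**
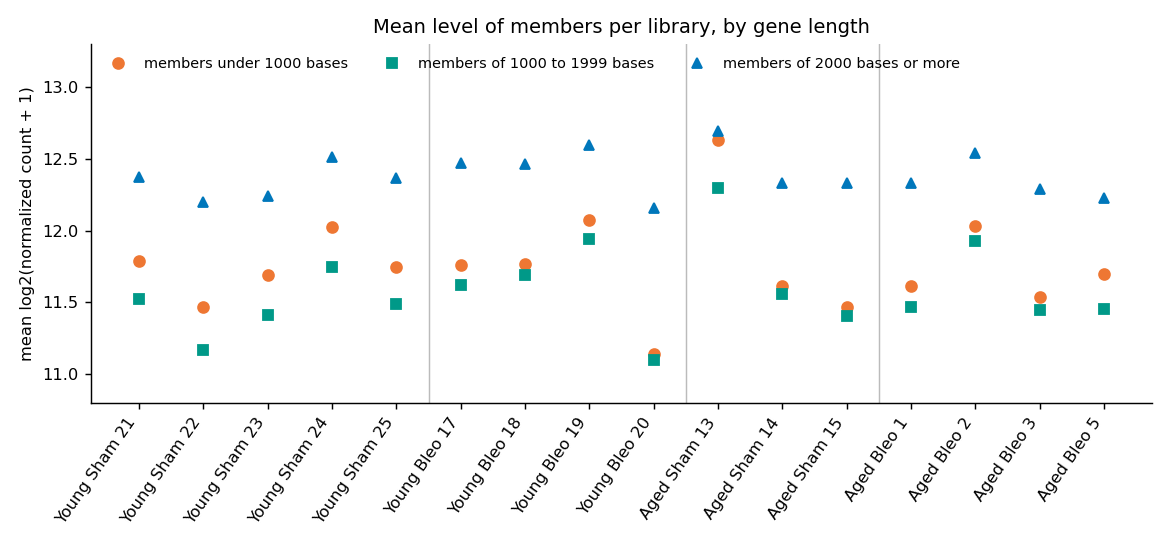
Mean log2(normalized count + 1) of members (y axis) in each of the 16 libraries (x axis, groups separated by lines), for members under 1000 bases, of 1000 bases to under 2000 and of 2000 bases or more. Aged Sham 13 lies above its group in all classes and most in the shortest, and Young Bleo 20 lies lowest.

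The medians of the comparisons that use Aged Sham rested on that library. In Aged Sham against Young Sham, 77 of 89 members had an estimate above 0 with all libraries and 26 of 89 without replicate 13, and the median went from 0.26 to -0.04. In Aged Bleo against Aged Sham, 75 of 89 were below 0 with a median of -0.21, which became 0.14, with 65 of 89 above 0, without it. The median difference of responses, -0.31 with 80 of 89 below 0, became -0.02. With all libraries the Aged Sham estimate was larger in shorter genes, with medians of 0.40, 0.30 and 0.14 in the 3 length classes and a Spearman's rho with length of -0.44 over the 89 members, beside -0.22 over 13774 genes. With offsets for gene length the median became 0.10. In Young Bleo and Aged Bleo against Young Sham the medians of 0.12 and 0.09 turned to -0.03 and -0.13 with those offsets, while the median of all genes moved to -0.09 and -0.14, so that the direction of the members as a group was not settled in either. Scaling by library totals moved the median of all genes in Aged Bleo against Aged Sham from -0.02 to 0.12 and that of the members from -0.21 to -0.07. Which of these views is nearer to the cells was not tested.

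Promoters were read for motifs of regulators known for respiratory genes. RefSeq promoter entries (GRCm38.p6, 250 bases before to 50 after the start) were matched for 75 of the 94 members, and Cox4i1, Cox4i2 and Ndufa4l2 were among those without an entry. The letters searched on both strands were GCGCATGC (nuclear respiratory factor NRF-1), CCGGAAGT (ETS factors such as GABP), AAGGTCA (estrogen-related receptors) and AAGATGGC (YY1). NRF-1 letters were in 12 of 75 member promoters (16%) against 3.05% of 27025 genes, ETS letters in 5 (6.67% against 4.31%), receptor letters in 8 (10.7% against 5.38%) and YY1 letters in 9 (12% against 3.19%). No motif was found in 44 of the 75. A match describes letters and not a bound site. The 250 bases before the start are printed for Cox6a1, the member with the highest FPKM, and for Atp5k, among the most variable, which both hold overlapping NRF-1 matches on both strands (capitals), and for Cox6b2, which differed in Aged Sham and holds none of the 4. All lie on the minus strand, at chr5:115348959-115349208, chr5:108434400-108434649 and chr7:4753095-4753344.
Cox6a1: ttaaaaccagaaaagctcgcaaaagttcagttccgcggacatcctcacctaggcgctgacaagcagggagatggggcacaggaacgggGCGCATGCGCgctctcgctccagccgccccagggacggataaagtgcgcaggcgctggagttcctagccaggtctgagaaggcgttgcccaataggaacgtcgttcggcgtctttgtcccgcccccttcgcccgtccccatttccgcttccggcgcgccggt
Atp5k: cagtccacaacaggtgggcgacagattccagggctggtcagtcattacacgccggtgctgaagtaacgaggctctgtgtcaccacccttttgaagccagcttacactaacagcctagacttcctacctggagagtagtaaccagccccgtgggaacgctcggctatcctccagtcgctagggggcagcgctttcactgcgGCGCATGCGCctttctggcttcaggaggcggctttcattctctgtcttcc
Cox6b2: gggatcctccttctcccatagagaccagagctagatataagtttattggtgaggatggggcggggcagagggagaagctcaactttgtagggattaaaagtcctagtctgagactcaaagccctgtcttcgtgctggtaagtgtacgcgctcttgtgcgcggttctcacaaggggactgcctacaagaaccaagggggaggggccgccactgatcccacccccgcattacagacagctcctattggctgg
The NRF-1 letters start 162 and 160 bases before the start of Cox6a1 and 50 and 48 bases before that of Atp5k. The median member promoter had 57.2% G and C and 14 CpG in these 250 bases, against 52.0% and 6 over all genes. Cox6b2 had 54.8% and 8.

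Other genes of the pathway, from lists of related genes, were also examined, with DESeq2 and the same threshold. Among 49 further respiratory chain genes (cytochrome c, assembly factors and coenzyme Q enzymes), 2 were higher and 1 lower in Young Bleo against Young Sham, 2 higher in Aged Bleo against Young Sham, 1 lower in Aged Bleo against Aged Sham and 0 in Aged Sham against Young Sham. Over all genes 7.57% were higher and 6.35% lower in the first of these and 6.58% higher in the next, with 2.45% lower in Aged Bleo against Aged Sham. Higd1a, a complex IV factor induced by low oxygen, was higher by 0.93 in each Bleo group than in Young Sham (adjusted p = 0.033 and 0.044). In Aged Bleo it read 5230, 6478, 2443 and 2313 normalized counts, and the macrophage marker Cd68 read 7891, 5840, 1319 and 914 in the same libraries. Leukocyte and macrophage markers were called higher in 5 of 9 in each Bleo group against Young Sham, and their part in the result was not tested. Uqcc2, a complex III assembly factor, was higher by 0.72 and 0.70 (adjusted p = 0.028 and 0.044). Pdss2, of coenzyme Q synthesis, was lower by -0.71 in Young Bleo and Cox18, which inserts a complex IV core subunit, by -0.67 in Aged Bleo against Aged Sham (adjusted p = 0.0053 and 0.028). Cox18 read 2610, 1662 and 1710 normalized counts in Aged Sham, highest in replicate 13, and 1109 to 1403 in Aged Bleo. Cycs and Cyc1, cytochrome c and its reductase partner, differed by 0.17 and 0.21 in Young Bleo, not called. edgeR called only Pdss2 of these (adjusted p = 0.046).

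Of 17 TCA cycle genes, Idh2, the mitochondrial NADP-dependent isocitrate dehydrogenase, was lower (-0.63) and Suclg2, a subunit of succinate-CoA ligase, higher (0.80) in Young Bleo against Young Sham, and Idh2 lower (-0.55) in Aged Bleo against Aged Sham. Suclg2 read 3284, 3134, 1569 and 1295 in Aged Bleo, highest in the libraries where Cd68 was highest. The part of macrophages in the Suclg2 result was not tested. Of 77 mitochondrial ribosomal protein genes 2 were higher in Young Bleo, beside 7.57% of all genes, and none was called in the other comparisons. The cytosolic ribosomal proteins, short and abundant like many members, gave 28 higher and 1 lower of 104 tested in Young Bleo and 9 higher and 1 lower in Aged Bleo against Young Sham, with medians of 0.64 and 0.53, beside 7.57% and 6.58% of all genes higher.

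Among 18 regulators of mitochondrial genes, the coactivators went apart. Ppargc1b read 7.55, 4.12, 41.0, 9.36 and 4.89 normalized counts in Young Sham and 72.8, 39.5, 72.7 and 69.5 in Young Bleo, with Young Sham replicate 23 above the lowest Young Bleo library, and was higher by 2.36 (SE 0.63, adjusted p = 0.0028). In Aged Bleo it was higher by 1.80 (SE 0.63, adjusted p = 0.042). Ppargc1a, the coactivator best known for raising respiratory genes, read 64.2, 134, 107, 59.7 and 12.7 in Young Sham and 38.4, 12.5, 4.2 and 10.5 in Aged Bleo, where it was lower by -2.20 (SE 0.70, adjusted p = 0.020), and differed by -0.44 in Young Bleo (adjusted p = 0.75). Esrra, the estrogen-related receptor they act on, was higher by 0.54 in Young Bleo (SE 0.19, adjusted p = 0.035). Nrf1 (-0.17), Gabpa (0.02) and Tfam (-0.07) differed little there and were not called. edgeR called only Ppargc1b in Young Bleo of these (adjusted p = 0.037, the others 0.070 to 0.13).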

How the data were processed

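RNA from lung endothelial cells of 16 samples in 4 groups was sequenced by the authors. They aligned reads with STAR 2.5.2b to mm10 and counted them per gene with featureCounts of the Subread package, as their processing notes and methods state. How strand and multi-mapping reads were handled is not given in the sources used here. The deposited table holds raw counts per gene and, computed by the authors, FPKM, and 0 of its per-sample columns belonged to no sample here.

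From the deposited counts, DESeq2 1.42.0 in R 4.3.3 was fitted to all 16 libraries with group as the model (median-of-ratios size factors, Wald test, unshrunken log2 fold changes, Benjamini-Hochberg adjustment over all genes tested). Groups came from the sample labels. A call needed an adjusted p no higher than 0.05 and a log2 fold change of 0.5 or more in either direction. edgeR 4.0.16 (quasi-likelihood test), TMM factors, library totals, offsets for gene length, a filter of 10 counts in 3 libraries, a fit of the 2 groups compared, calls with no fold threshold and leaving out each library were the alternatives. Scripts were tested on simulated data. Tables and FPKM summaries used Python 3.11.15 with pandas 2.3.3 and scipy 1.17.1. Genes named were called members whose normalized counts averaged 50 or more (up to 10 each way), paired isoforms, core subunits, 6 regulators and the 3 members highest by FPKM. Not every gene under this rule is reported here. Further genes are named as examples of a list, and Uqcr11, Atp5k, Cox7c and Higd1b were named after their values were seen. The members and lists were chosen with earlier results of these data known. Library totals were 20907113 to 71035301 counts, and errors given are the spread between libraries.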

Additional observations from a re-analysis of the deposited data

Results flagged for a closer look

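In groups of 4 or 5 libraries, 9 of 111 sets of values had a library far from the others by Dixon's gap criterion, where chance gives about 1 in 20. Aged Bleo replicate 2 was the highest of its group for the mean log2 level of the members (12.16), for Cox6b1 (13176 normalized counts) and for Cox5b (5778). Aged Bleo replicate 3 was the highest of its group for Atp5b (43708). Young Bleo replicate 19 was the lowest of its group for Atp5b (43149) and for Ndufs1 (2458). Among the regulators, Esrra was lowest in Young Bleo replicate 20 (767), and Ppargc1b was highest in Young Sham replicate 23 (41.0) and lowest of its group in Young Bleo replicate 18 (39.5).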

How the results depend on the processing

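The calls of Cox4i2 and Ndufa4l2 in both Bleo groups against Young Sham held under all 15 alternatives, and that of Cox6b2 in Aged Sham under all 14. In Aged Sham against Young Sham, edgeR called 0 members lower, and length offsets and the fit of 2 groups called 2. Leaving out 1 library gave 1 to 2 higher, 0 to 2 lower and a median of -0.042 to 0.43. In Young Bleo against Young Sham, edgeR and length offsets called 0 higher and library totals 2, and leaving out 1 library gave 0 to 3 higher. In Aged Bleo against Young Sham the fit of 2 groups called 1 higher, and length offsets or leaving out Aged Bleo replicate 3 called 3 lower. In Aged Bleo against Aged Sham, edgeR called 0 lower, library totals and the fit of 2 groups 1, and leaving out 1 library gave 1 to 3 lower and a median of -0.36 to 0.14. For the difference of responses, length offsets called 1 higher, and leaving out 1 library gave 0 to 1 higher, 0 to 1 lower and a median of -0.47 to -0.021. The cause was not tested. Over all genes with normalized counts averaging 50 or more, calls split 1230 higher and 1091 lower in Young Bleo against Young Sham, 1576 and 818 with library totals and 1077 and 1504 with length offsets. They split 1004 and 513 in Aged Bleo against Young Sham (822 and 1192 with length offsets), 356 and 170 in Aged Sham against Young Sham (281 and 252 with library totals, 294 and 260 with length offsets) and 553 and 421 in Aged Bleo against Aged Sham (899 and 250 with library totals, 515 and 647 with length offsets). They split 88 and 65 in Aged Bleo against Young Bleo (76 and 93 with length offsets). With 1 library left out they ran from 39 (without Aged Bleo replicate 5) to 317 (without Young Bleo replicate 20) higher and 31 (without Young Bleo replicate 19) to 134 (without Aged Bleo replicate 1) lower there. They ran in Aged Bleo against Aged Sham from 213 and 207 (without Aged Bleo replicate 1) to 703 and 646 (without Aged Bleo replicate 3). In Aged Bleo against Young Sham they ran from 571 and 292 to 1185 and 782 with the same libraries left out. In Young Bleo against Young Sham they ran from 897 and 766 (without replicate 17) to 1463 and 1554 (without replicate 20). In Aged Sham against Young Sham they ran from 171 (without Aged Sham replicate 14) to 388 higher. Lower calls there ran from 105 (without Young Sham replicate 22) to 209. For the difference of responses they split 18 and 43, and ran from 7 (without Young Sham replicate 22) to 112 higher and 19 (without Young Bleo replicate 19) to 90 lower, both highest without Young Bleo replicate 20. Of 206 named results not called, 12 were called under some alternative. No paired analysis was possible because the library numbers in the labels do not repeat between groups. With 3 to 5 libraries a group, small differences were not detectable.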
